A study of Rattus norvegicus with 18 samples.

Results

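The genes described here are those that the deposited gene tables assign to the KEGG pathway of antigen processing and presentation and to neither of the pathways of the lysosome and of protein processing in the endoplasmic reticulum. They were 65 of the 81 genes of that pathway and of 32623 genes in each table, and the rule reads only that annotation. RNA was sequenced from cultured mesenchymal stem cells (MSCs) grown from marrow of SD (Sprague-Dawley) rats aged 2 months, at passage 3. The cells came from wild type (WT) rats or from rats without the microRNA gene miR-337 (KO, miR-337-/-). All cultures were serum starved for 8 h, and they were then kept in serum starvation (SSt), given fetal bovine serum (FBS) or put under 10% cyclic mechanical stretch (CMS). There were 3 libraries in each of the 6 groups, 18 in all. The labels give 24 h for this step, and the study's methods give a shorter time for the sequenced cultures. The cells were isolated by adherence to culture dishes with no sort described, and the sources used here do not say whether libraries of a group came from separate rats or cultures, so that p-values speak only of the spread among these 18 libraries. WT and KO libraries stand in separate tables, and for WT against KO the genotype and the table cannot be told apart.

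Class I molecules are made of a heavy chain and beta-2 microglobulin (B2m), and they show peptides from inside the cell to CD8 T cells. Those peptides are cut by the proteasome, pumped into the endoplasmic reticulum by the transporter Tap1 and Tap2, and loaded with the help of tapasin (Tapbp). Class II molecules are pairs of alpha and beta chains that hold peptides taken up from outside and show them to CD4 T cells, with the invariant chain Cd74 as chaperone, and they are known mostly from macrophages, dendritic cells and B cells. Class II genes are switched on by the coactivator Ciita, which binds no DNA itself and acts through the factors Rfx5, Rfxank, Rfxap, Creb1 and the Nfy proteins bound at their promoters. Nlrc5 does the like for class I genes. In the rat the class I and class II genes carry the prefix RT1, and 40 of the 65 genes lie on chromosome 20.

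The promoters show what the class II genes and many class I genes share beside their annotation. RefSeq gave a promoter for 46 of the 65 genes (build GRCr8, from 250 bases before to 50 bases after the start), and none for 19. These were searched on both strands for GNNACNG followed after 24 to 27 bases by ATTGG, a layout written down after looking at these promoters, in which the first part resembles the X box read by the Rfx factors and ATTGG is the Y box read by the Nfy proteins. It was present in 5 of 8 class II promoters (62.5%), in 7 of 18 class I promoters (38.9%), in 0 of the promoters of the other genes described here and in 260 of all 33469 promoters of the same length (0.777%). Since the search was shaped on these sequences, the shares are a description, and heavy chain promoters that resemble each other are not independent of each other. ATTGG alone was in 8 of 8 class II promoters and in 37.5% of all promoters. The windows below show 4 class II chains whose RNA was lower under CMS than under SSt in KO. They are followed by B2m and 3 class I heavy chains, with both motifs in capitals throughout.
RT1-Da, class II alpha chain, chr20:4515318-4515385, plus strand: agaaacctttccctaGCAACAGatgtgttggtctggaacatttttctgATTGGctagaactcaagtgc
RT1-Db1, class II beta chain, chr20:4560223-4560289, minus strand: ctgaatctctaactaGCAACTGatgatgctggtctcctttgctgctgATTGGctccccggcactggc
RT1-Ba, class II alpha chain, chr20:4576966-4577033, plus strand: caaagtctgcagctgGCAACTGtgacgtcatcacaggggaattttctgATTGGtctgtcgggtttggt
RT1-Bb, class II beta chain, chr20:4604160-4604226, minus strand: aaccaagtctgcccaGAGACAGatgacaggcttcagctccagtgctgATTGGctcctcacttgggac
B2m, light chain of class I, chr3:129549218-129549285, plus strand: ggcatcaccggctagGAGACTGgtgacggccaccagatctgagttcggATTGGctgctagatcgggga
RT1-A2, class I heavy chain, chr20:4872743-4872810, plus strand: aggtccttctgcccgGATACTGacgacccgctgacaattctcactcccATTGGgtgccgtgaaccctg
RT1-CE10, class I heavy chain, chr20:3385060-3385127, minus strand: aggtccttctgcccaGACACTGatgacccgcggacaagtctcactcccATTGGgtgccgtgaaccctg
RT1-M3-1, class I heavy chain, chr20:1333369-1333436, minus strand: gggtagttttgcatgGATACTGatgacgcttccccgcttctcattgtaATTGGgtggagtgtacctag
In every printed window the gap between the motifs is 25 or 26 bases, the motifs lie on the strand of the gene, and the windows end upstream of its start. RT1-Ha, a class II gene not printed here, held the layout and had a count of 0 in all 18 libraries. Cd74, RT1-DOa and RT1-DOb held ATTGG without the layout.

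Libraries held 56.08 M to 71.85 M counts each (median 61.22 M). The precursor gene Mir337 had a count of 0 in all 18 libraries, WT included, so the tables hold no check of the knockout. Of the MSC markers, Thy1 and Col1a1 were abundant and Lepr was at or near 0, with 0.07 FPKM (reads scaled to transcript length and library total) as its highest value. The cultures also held RNA of macrophages and other myeloid cells: the 16 genes of that list (Ptprc, Cd68, Csf1r, Adgre1 and others) summed to 4515 to 4625 FPKM in WT SSt, 7461 to 7867 in WT FBS, 7286 to 7619 in WT CMS, 2726 to 2858 in KO SSt, 5501 to 6284 in KO FBS and 5279 to 5687 in KO CMS. Lyz2 was the largest part of each of these sums. Its group means were 2299, 4987 and 4841 FPKM in WT SSt, FBS and CMS, and 1517, 3230 and 3012 in KO. Of 5 B cell markers, 4 were at 0 in each WT group and all 5 in each KO group, and of 5 T cell markers 4 were at 0 in every group. The dendritic markers Flt3, Xcr1 and Clec9a were at or near 0 while Itgax was present. In such bulk RNA, fewer cells of a type and less RNA per cell cannot be told apart. Replicate 1 of KO FBS stood apart from the other replicates of its group in myeloid genes, with 25.4, 53.2 and 59.4 FPKM of Mrc1 and 124, 34.5 and 30.9 FPKM of Adgre1 in replicates 1, 2 and 3, and values that change their call without it are given both ways where they are described.

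The first question was which of the genes answered to serum or stretch in each genotype. A gene is said to have passed when its adjusted p was under 0.05 (edgeR quasi-likelihood test on counts, Benjamini-Hochberg over all genes tested), and to be called when it also changed at least 2-fold. A log2 fold change is given with its standard error (SE) after ±. Of the 65 genes, 49 were tested, those with at least 1 FPKM in at least 3 libraries. With FBS over SSt in WT, 9 were called higher and 1 lower, where 8.95% and 7.14% of all 12916 genes tested were. With CMS over SSt in WT the counts were again 9 and 1, beside 8.66% and 8.02%. In KO, FBS over SSt called 7 higher and 1 lower, beside 9.47% and 7.67% of 12888 genes, and CMS over SSt called 7 higher and 11 lower, beside 9.56% and 9.66%. At any fold, 26 passed higher and 4 lower with FBS in WT (33.7% and 32.7% of all genes), 26 and 6 with CMS in WT (34.6% and 32.3%), 22 and 5 with FBS in KO (30.3% and 29.5%), and 25 and 15 with CMS in KO (30.8% and 30.7%). The median log2 fold change of the tested genes was 0.38, 0.33, 0.38 and 0.50 in these 4 comparisons, while that of all genes lay between -0.0016 and 0.017. Class II genes made up 9 of the 11 called lower with CMS in KO.

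**Figure D1:**
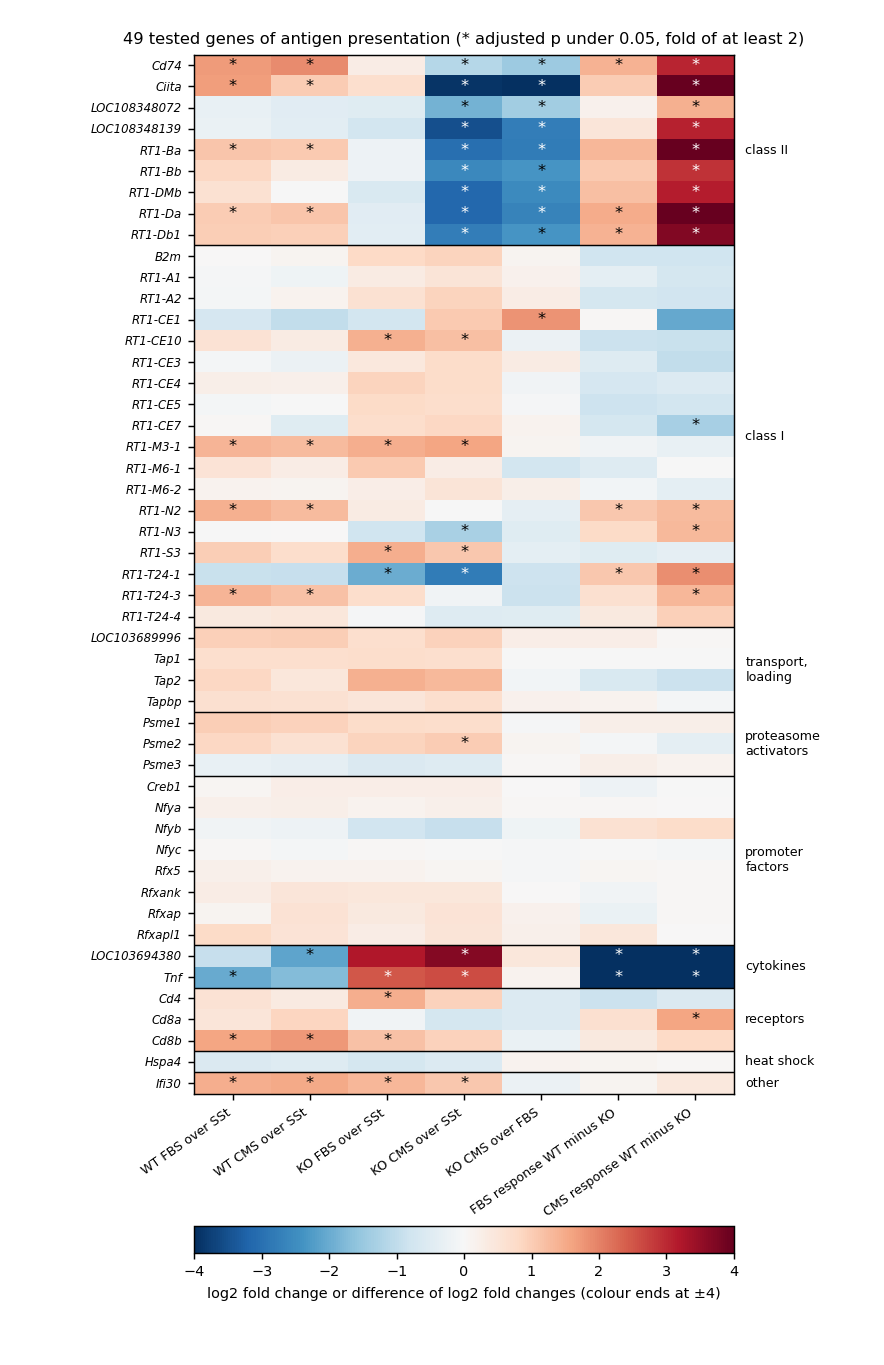
Log2 fold changes (colour, in log2 units, ending at 4 either way) of the 49 tested genes, 1 line per gene grouped by role, for CMS and FBS over SSt in WT and KO, CMS over FBS in KO and the differences of response, with a star where the gene was called. The class II lines are blue (lower) and starred in both KO CMS columns, and red (higher) and starred in the difference of response to CMS.

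Most class II genes rose with both treatments in WT cells. Cd74, the invariant chain, was at 111, 108 and 102 FPKM in the WT SSt libraries, at 390.1, 319 and 360.1 in WT FBS and at 401, 393 and 414 in WT CMS. All 6 treated libraries lay above all 3 starved ones, with a log2 fold change of 1.70 ± 0.07 (adjusted p = 1.03e-08) for FBS and 1.89 ± 0.07 (adjusted p = 5.14e-09) for CMS. RT1-Da, an alpha chain, was at 9.54, 10.8 and 9.46 FPKM in WT SSt, 22.8, 18.8 and 20.7 in WT FBS and 21.8, 21.5 and 21.8 in WT CMS, again with no overlap. Its log2 fold changes were 1.03 ± 0.07 (adjusted p = 9.08e-07) and 1.10 ± 0.07 (adjusted p = 5.40e-07). RT1-Ba, the alpha chain of the other class II pair, went from 2.80, 3.62 and 3.98 FPKM in WT SSt to 8.43, 6.81 and 7.95 in WT FBS and 7.37, 6.06 and 8.26 in WT CMS. Its log2 fold changes were 1.12 (adjusted p = 0.000171) and 1.03 (adjusted p = 0.000296). The coactivator Ciita was scarce, at 0.473, 0.580 and 0.461 FPKM in WT SSt, 1.95, 1.33 and 1.71 in WT FBS and 1.28, 0.655 and 1.21 in WT CMS, and both rises were called, at 1.68 ± 0.26 (adjusted p = 0.000218) for FBS and 1.03 ± 0.25 (adjusted p = 0.00487) for CMS. The beta chain RT1-Db1 passed with both treatments at a log2 fold change of 0.99 and 0.95, just under 2-fold, and RT1-Bb passed with FBS (0.84 ± 0.26, adjusted p = 0.0162) and not with CMS (0.34 ± 0.26, adjusted p = 0.277). Of the 9 class II genes tested, 7 passed higher with FBS and 0 lower, and 5 passed higher with CMS and 1 lower. Of all genes tested, 33.7% passed higher and 32.7% lower with FBS, and 34.6% and 32.3% with CMS. The number of class II genes called higher was 4 with either treatment, beside 8.95% of all genes with FBS and 8.66% with CMS. It was 2 with CMS without replicate 3 of WT CMS or replicate 1 of WT SSt.

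In KO cells most of these genes were high under starvation and low under stretch. Cd74 was at 282, 306 and 308 FPKM in KO SSt, 141, 441 and 485 in KO FBS and 113, 140.1 and 121 in KO CMS. RT1-Da was at 28.9, 29.8 and 29.1 FPKM in KO SSt, 6.81, 26.2 and 28.6 in KO FBS and 3.39, 3.28 and 2.56 in KO CMS. For both genes every KO CMS library lay below every other KO library, and in KO FBS the first replicate lay far below the other two. The log2 fold change of CMS over SSt was -3.14 ± 0.45 (adjusted p = 0.00029) for RT1-Da, while Cd74 fell less, by 1.15 ± 0.36 (adjusted p = 0.0205). RT1-Ba was at 8.13, 11.1 and 9.60 FPKM in KO SSt, 2.49, 9.64 and 11.9 in KO FBS and 0.902, 1.25 and 1.10 in KO CMS, a log2 fold change of -3.03 ± 0.49 (adjusted p = 0.000608) for CMS. Ciita was at 1.14, 1.80 and 1.45 FPKM in KO SSt, 0.694, 2.91 and 3.16 in KO FBS and 0.0993, 0.0664 and 0.0955 in KO CMS. It fell by 3.92 ± 0.54 (adjusted p = 0.000241) with CMS, more than any other of the 49 genes tested. RT1-Db1 (-2.77, adjusted p = 0.000304) and RT1-Bb (-2.57, adjusted p = 0.000359) fell as well. All 9 tested class II genes were called lower with CMS over SSt in KO, where 9.66% of all genes were. Their median log2 fold change was -3.03, beside -0.0016 for all genes. Cd74 did not pass without replicate 1 of KO CMS (-1.08, adjusted p = 0.0645) or without replicate 3 (-1.13, adjusted p = 0.0578).

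With FBS in KO, 0 of the 9 class II genes passed, where 30.3% of all genes passed higher and 29.5% lower. The median log2 fold change of the 9 was -0.43. Both the count of 0 and this median rested on replicate 1 of KO FBS. Without it Cd74 passed at 0.67 ± 0.09 (adjusted p = 0.000261) and Ciita at 1.09 ± 0.20 (adjusted p = 0.00175), the latter a call. RT1-Da then stood at -0.06 ± 0.10 (adjusted p = 0.662). Stretch and serum were also set against each other. In KO, CMS over FBS called 9 of the 49 genes lower and 1 higher, where 2.05% and 0.566% of all genes were, and the 9 lower ones were the 9 class II genes, led by Ciita at -4.59 ± 0.55 (adjusted p = 0.00157) and RT1-Ba at -2.81 ± 0.48 (adjusted p = 0.00728). Over the alternative settings 6 to 9 class II genes were called lower here. In WT, CMS over FBS called 0 of the 49 genes by edgeR and 0 by DESeq2, 3 passed at any fold by edgeR, and 13 had an unadjusted p under 0.05. The shares of all genes called were 0.0232% higher and 0.194% lower, and at any fold 3.91% and 5.03% passed. Cd74 differed there by 0.19 ± 0.06 (adjusted p = 0.108) and RT1-Da by 0.07 ± 0.07 (adjusted p = 0.597).

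**Figure D2:**
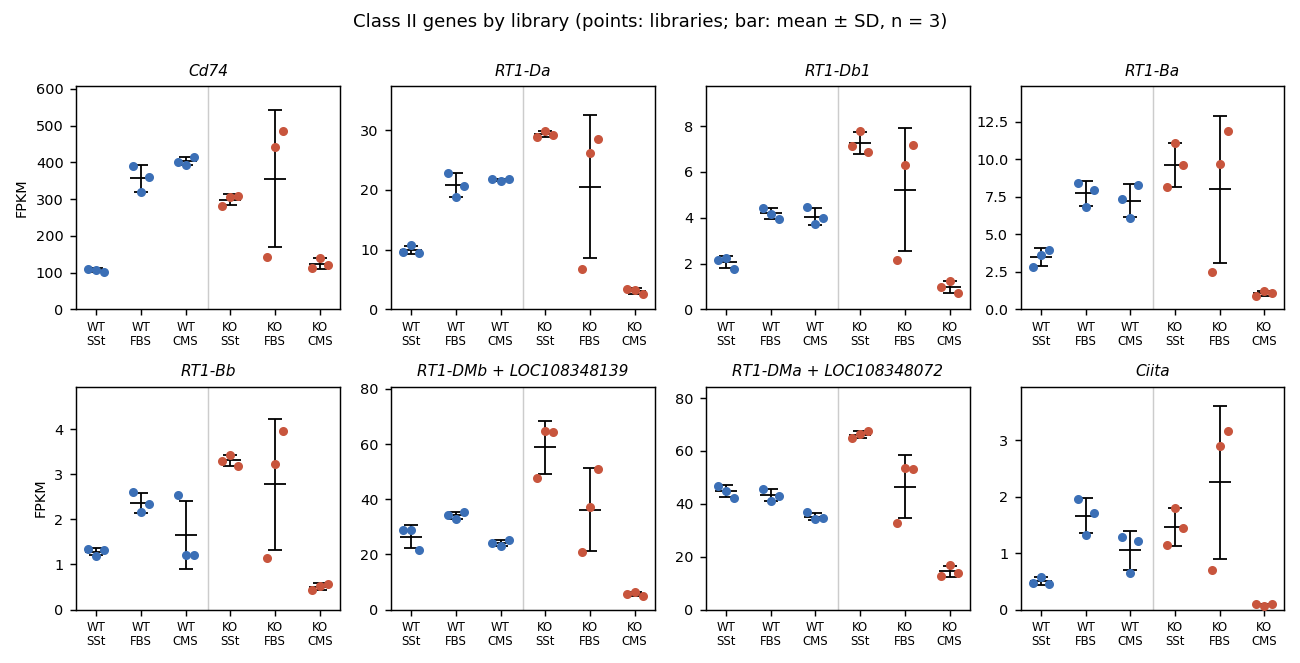
FPKM (linear axis from 0) of class II genes and of the summed DM pairs in each library of the 6 groups, with points for libraries and bars for mean ± SD (n = 3). KO CMS libraries lie below the other KO libraries in each panel, and replicate 1 of KO FBS lies below the other 2 of its group.

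The difference between the genotypes in the response to stretch was itself tested, as the log2 fold change of CMS over SSt in WT minus that in KO. It called 14 of the 49 genes higher and 3 lower, beside 6.65% and 6.77% of 13317 genes. The 9 tested class II genes were all among the 14, and they were 9 in every alternative setting that kept the annotated copies apart. The difference was 4.94 ± 0.61 (adjusted p = 1.48e-05) for Ciita, 4.24 ± 0.47 (adjusted p = 5.90e-06) for RT1-Da, 4.06 ± 0.53 (adjusted p = 2.36e-05) for RT1-Ba and 3.03 ± 0.40 (adjusted p = 2.33e-05) for Cd74. For FBS over SSt the same test called 5 higher and 2 lower, beside 3.64% and 5.33%. Of the class II genes 3 were called, Cd74 at 1.38 ± 0.39 (adjusted p = 0.0124), RT1-Da at 1.48 ± 0.45 (adjusted p = 0.0186) and RT1-Db1 at 1.40 ± 0.42 (adjusted p = 0.0162), and 6 did not pass, where 17.2% of all genes passed higher and 18.5% lower at any fold. Without replicate 1 of KO FBS they were 1.01 ± 0.12 (adjusted p = 1.68e-05), 1.07 ± 0.13 (adjusted p = 2.33e-05) and 1.04 ± 0.22 (adjusted p = 0.00232). Both responses share the SSt libraries of each genotype.

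Levels were next compared between the genotypes under each condition. Under SSt, KO over WT called 7 of the 49 genes higher and 3 lower, beside 2.67% and 4.66% of all genes. The 7 higher were class II genes, and the 3 lower were Cd4, Tnf and its annotated copy LOC103694380. Among the higher ones were RT1-Db1 at 1.74 ± 0.30 (adjusted p = 0.000241), RT1-Da at 1.49 ± 0.32 (adjusted p = 0.00153) and Cd74 at 1.40 ± 0.28 (adjusted p = 0.00080). All 3 KO SSt libraries lay above all 3 WT SSt libraries for these 3 genes. Under FBS, 0 of the 49 genes were called by edgeR or by DESeq2, with 3 passing at any fold by edgeR and 7 at an unadjusted p under 0.05, beside 2.5% of all genes called higher and 1.52% lower, and 13.5% and 12.3% at any fold. Cd74 differed there by 0.02 ± 0.27 (adjusted p = 0.969). That value averages over replicate 1 of KO FBS, at 141 FPKM, and replicates 2 and 3, at 441 and 485. The WT FBS libraries held 319 to 390.1 FPKM of Cd74. Without replicate 1 of KO FBS, 0 of the 9 tested class II genes were called in KO over WT under FBS. Under CMS, 0 of the 49 genes were called higher and 11 lower, beside 3.58% and 4.72%. Of the 11, 8 were class II genes, beside RT1-T24-1, RT1-T24-3 and Cd4. The log2 fold change was -3.48 ± 0.46 (adjusted p = 3.16e-05) for Ciita and -2.75 ± 0.34 (adjusted p = 1.88e-05) for RT1-Da. By group mean, KO CMS was the lowest of the 6 groups for RT1-Da, RT1-Ba, RT1-Db1, RT1-Bb and Ciita. For Cd74 it was WT SSt, at 107 ± 4.37 FPKM (SD, n = 3) against 124 ± 14.1 FPKM (SD, n = 3) in KO CMS.

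The myeloid list moved with the treatments in part the other way. Of its 15 tested genes, 8 were called higher and 2 lower with CMS over SSt in KO, beside 9.56% and 9.66% of all genes. All 9 tested class II genes were called lower there. Cd68, a lysosomal protein of macrophages, had a log2 fold change of 1.96 ± 0.07 (adjusted p = 1.61e-07) and the macrophage gene Adgre1 one of 4.62 ± 0.57 (adjusted p = 0.000116). The 2 lower ones were Csf1r, the receptor for macrophage growth factor, at -1.08 ± 0.15 (adjusted p = 0.000245), and the mannose receptor Mrc1, at -1.58 ± 0.27 (adjusted p = 0.000871). In WT the summed myeloid level was higher with both treatments, with Lyz2 as its largest part. Of the 15 genes, 2 were called higher and 1 lower with FBS, beside 8.95% and 7.14% of all genes. With CMS 2 were called higher and 2 lower, beside 8.66% and 8.02%. At any fold 10 passed higher and 2 lower with FBS, beside 33.7% and 32.7%. With CMS 10 passed higher and 4 lower, beside 34.6% and 32.3%. With FBS over SSt in KO, 10 of the 15 were called higher and 0 lower, beside 9.47% and 7.67%. CMS over FBS in KO called 0 higher and 3 lower, beside 0.566% and 2.05%, where all 9 class II genes were lower. Both counts include replicate 1 of KO FBS. Under SSt, KO over WT called 0 of the 15 higher and 5 lower, beside 2.67% and 4.66%, where 7 class II genes were higher. Under CMS it called 1 higher and 2 lower, beside 3.58% and 4.72%, where 8 class II genes were lower. The part of myeloid RNA in the class II results was not tested.

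**Figure D3:**
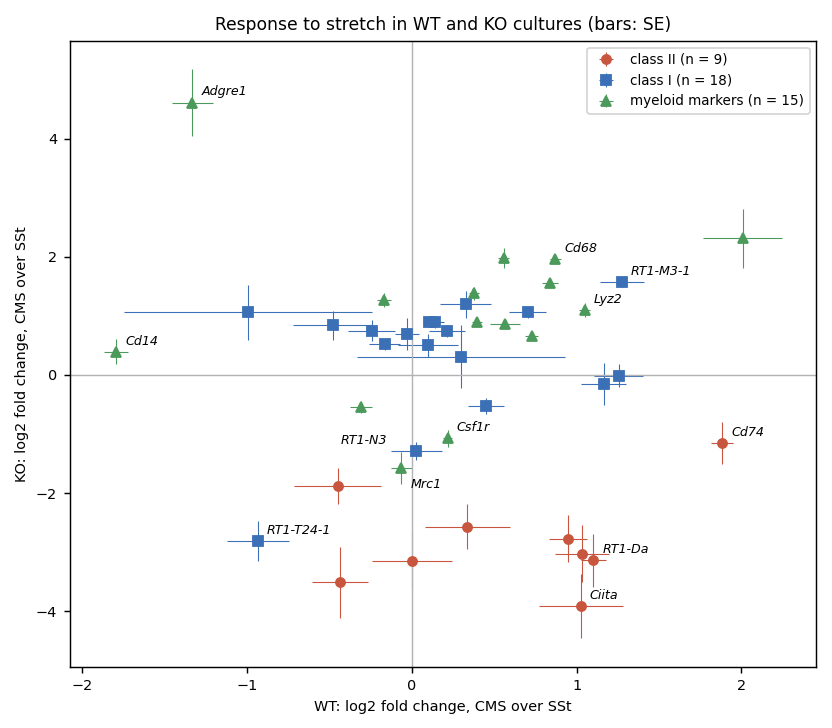
Log2 fold change of CMS over SSt in WT (x axis) against that in KO (y axis), with bars for the SE, for class II genes (circles), class I genes (squares) and myeloid markers (triangles). The class II genes lie between -1.15 and -3.92 in KO. Of the 15 myeloid markers 11 passed higher and 3 lower there, beside 30.8% and 30.7% of all genes.

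Class II peptides are exchanged by the DM pair, RT1-DMa and RT1-DMb. The tables hold a further annotated gene for each, LOC108348072 for the alpha and LOC108348139 for the beta chain, and reads were split between them unevenly, with RT1-DMb at 26.2% to 84.2% of its pair across libraries. RT1-DMb alone was at 18.97, 20.2 and 9.25 FPKM in WT SSt, 24.2, 24.6 and 27.2 in WT FBS and 15.4, 14.6 and 19.3 in WT CMS, and at 15.6, 56.9 and 43.9 in KO SSt, 15.9, 21.6 and 36.4 in KO FBS and 4.66, 4.32 and 3.14 in KO CMS. LOC108348072 alone was at 23.1, 22.2 and 17.99 FPKM in WT SSt, 22.5, 20.5 and 9.61 in WT FBS and 18.7, 14.2 and 14.2 in WT CMS, and at 32.1, 27.4 and 33.2 in KO SSt, 11.3, 26.6 and 26.2 in KO FBS and 6.27, 10.1 and 6.90 in KO CMS. Both were lower in every KO CMS library than in any other KO library. RT1-DMa carries no pathway entry in the tables and is not among the 65 genes. The summed counts were therefore fitted as well, a choice made after seeing the data. The beta pair was at 28.9, 28.9 and 21.6 FPKM in WT SSt, 34.4, 32.7 and 35.4 in WT FBS and 24.2, 23.1 and 25.2 in WT CMS. In KO it was at 47.8, 64.7 and 64.3 in SSt, 20.9, 37.1 and 50.8 in FBS and 5.73, 6.37 and 4.86 in CMS. The WT libraries lay between 21.6 and 35.4 FPKM and every KO CMS library below them, with a log2 fold change of -3.29 ± 0.29 (adjusted p = 1.41e-05) beside -0.19 ± 0.08 (adjusted p = 0.0509) in WT. The alpha pair had -2.08 ± 0.18 (adjusted p = 1.24e-05) in KO and -0.37 ± 0.05 (adjusted p = 0.00013) in WT. The responses differed by 3.10 ± 0.30 (adjusted p = 2.03e-06) for the beta and 1.70 ± 0.19 (adjusted p = 6.10e-06) for the alpha pair.

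B2m was the most abundant of all 65 genes, and it and several class I heavy chains rose more in KO than in WT cells. B2m was at 473, 510.4 and 499 FPKM in WT SSt, 502, 516 and 508 in WT FBS and 540.2, 527 and 556 in WT CMS. The KO libraries held 353, 326 and 338 in SSt, 614, 562 and 505 in FBS and 573, 572 and 605 in CMS. The KO SSt libraries were below all others, and the WT groups were close to each other. In KO the log2 fold change was 0.79 ± 0.08 (adjusted p = 5.72e-05) for FBS and 0.89 ± 0.08 (adjusted p = 2.16e-05) for CMS, and in WT 0.01 ± 0.03 (adjusted p = 0.90) and 0.10 ± 0.03 (adjusted p = 0.0164). The response to CMS differed between the genotypes by -0.79 ± 0.09 (adjusted p = 7.63e-06) and that to FBS by -0.79 ± 0.09 (adjusted p = 1.69e-05). The heavy chain RT1-A2 was at 51.8, 50.04 and 49.9 FPKM in WT SSt, 49.8, 46.8 and 50.7 in WT FBS and 59.8, 58.5 and 51.9 in WT CMS, against 36.4, 38.8 and 39.7 in KO SSt, 60.03, 53.8 and 54.7 in KO FBS and 56.1, 74.9 and 67.4 in KO CMS. It too was lowest in KO SSt, and rose in KO by 0.61 ± 0.11 (adjusted p = 0.00107) with FBS and 0.90 ± 0.11 (adjusted p = 9.95e-05) with CMS. RT1-CE5, another heavy chain, was at 27.5, 27.003 and 23.6 FPKM in WT SSt, 25.9, 23.8 and 26.8 in WT FBS and 23.9, 26.7 and 27.2 in WT CMS. Its KO values were 10.7, 20.2 and 18.3 in SSt, 27.1, 27.4 and 25.4 in FBS and 29.8, 15.9 and 28.5 in CMS, and replicate 2 of KO CMS lay within the range of KO SSt. Its rise in KO, 0.76 ± 0.27 (adjusted p = 0.037) with FBS and 0.70 ± 0.27 (adjusted p = 0.0487) with CMS, did not pass without replicate 1 of KO FBS, at 0.73 ± 0.30 (adjusted p = 0.0679) and 0.70 ± 0.27 (adjusted p = 0.0509).

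Of the 18 class I genes tested, 9 passed higher and 2 lower with FBS in KO and 10 higher and 3 lower with CMS in KO, where 30.3% and 29.5% of all genes did with FBS and 30.8% and 30.7% with CMS. Without replicate 1 of KO FBS the higher counts were 7 and 9. In WT, 6 passed higher and 1 lower with FBS and 7 higher and 1 lower with CMS, and 6 of 18 is near the 33.7% of all genes that passed higher with FBS there. The median log2 fold change of the 18 was 0.10 and 0.12 with FBS and CMS in WT and 0.67 and 0.72 in KO. Under SSt, 9 of the 18 passed lower in KO than in WT and 4 higher, beside 23.2% and 24.2% of all genes, with -0.62 ± 0.06 (adjusted p = 2.30e-06) for B2m and -0.72 ± 0.19 (adjusted p = 0.0069) for RT1-CE10. The difference in response to CMS, which 21.6% of all genes passed as lower in WT and 23.2% as higher, passed as lower for 7 genes (B2m, RT1-A1, RT1-A2, RT1-CE3, RT1-CE4, RT1-CE7 and RT1-CE10) and as higher for 5 (RT1-N2, RT1-N3, RT1-T24-1, RT1-T24-3 and RT1-T24-4). In both genotypes RT1-M3-1, whose product shows formylated peptides, rose with both treatments. It was at 2.31, 3.22 and 2.47 FPKM in WT SSt, 6.53, 7.62 and 6.74 in WT FBS and 6.05, 6.97 and 6.73 in WT CMS. The KO libraries gave 2.64, 2.58 and 2.39 in SSt, 6.76, 7.04 and 6.48 in FBS and 7.27, 6.87 and 6.86 in CMS. No treated library overlapped the starved ones, and the 4 log2 fold changes lay between 1.27 and 1.57. Its response to CMS differed between the genotypes by -0.30 ± 0.16 (adjusted p = 0.138), which did not pass. RT1-S3 was at 6.28, 5.16 and 4.57 FPKM in WT SSt, 10.4, 11.3 and 10.8 in WT FBS and 9.61, 8.32 and 8.56 in WT CMS. For KO the values were 4.74, 4.18 and 4.27 in SSt, 11.9, 11.2 and 11.5 in FBS and 7.98, 9.89 and 7.78 in CMS. All treated libraries were above the starved ones of their genotype, with 0.99 ± 0.11 (adjusted p = 2.70e-05) for FBS in WT and 1.45 ± 0.11 (adjusted p = 7.60e-06) in KO.

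Some other class I genes were lower in treated KO cells or higher in treated WT cells. RT1-T24-1 was at 4.08, 4.86 and 5.07 FPKM in WT SSt, 2.15, 2.78 and 2.79 in WT FBS and 1.90, 2.85 and 2.68 in WT CMS. KO levels were 8.24, 8.61 and 10.1 in SSt, 1.56, 1.83 and 3.09 in FBS and 0.742, 1.64 and 1.15 in CMS. It was highest in the starved cells of both genotypes, and fell in KO by 2.81 ± 0.34 (adjusted p = 9.99e-05) with CMS, against -0.93 ± 0.19 (adjusted p = 0.00146) in WT. Its response to FBS differed by 1.09 ± 0.38 (adjusted p = 0.0365), and by 0.92 ± 0.39 (adjusted p = 0.0849) without replicate 1 of KO FBS. RT1-N3 fell in KO with CMS (-1.28 ± 0.15, adjusted p = 0.000103) and stood at 0.03 ± 0.15 (adjusted p = 0.89) in WT. RT1-N2 and RT1-T24-3 were called higher in WT with both treatments, at 1.42 and 1.37 with FBS, and did not pass with either in KO. The response of RT1-N2 to FBS differed by 1.08 ± 0.23 (adjusted p = 0.00185), and by 0.98 ± 0.24 (adjusted p = 0.00518), just under 2-fold, without that library. Of the 25 class I genes 10 overlap another annotated gene on the same strand, among them RT1-T24-1, and RT1-CE1, RT1-CE4 and RT1-CE7 run across the Tnf locus in the annotation. The heavy chains are near copies of each other, so how reads were shared among them by the counting is uncertain for each single gene. In the 8 tested class I genes with no such overlap, 4 passed higher and 2 lower with CMS in KO, and in the 10 with one, 6 higher and 1 lower.

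**Figure D4:**
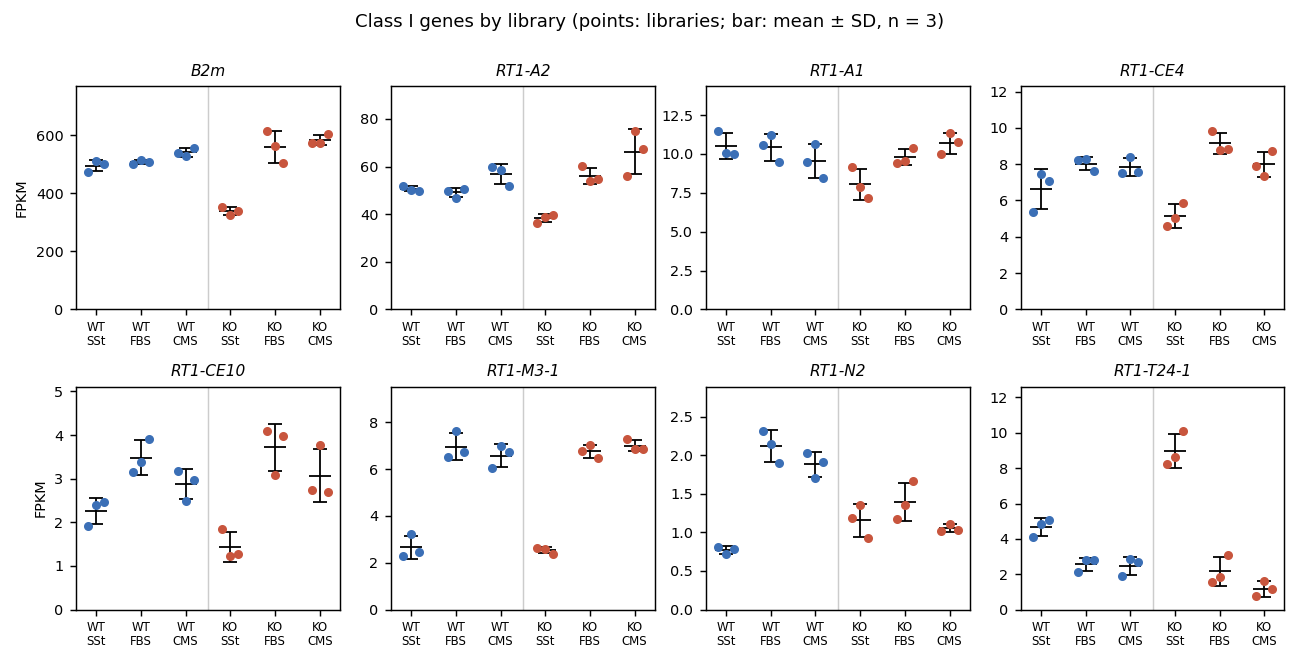
FPKM (linear axis from 0) of B2m and class I heavy chains in each library of the 6 groups, with points for libraries and bars for mean ± SD (n = 3). B2m lies between 326 and 353 in KO SSt and at 473 or more in every other library, and RT1-M3-1 is higher in all treated libraries.

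Most genes that cut, carry and load class I peptides rose with serum and stretch in both genotypes. Psme1, the alpha subunit of the proteasome activator PA28, was at 44.8, 45.2 and 48.5 FPKM in WT SSt, 94.5, 92.5 and 93.9 in WT FBS and 89.0, 87.6 and 93.4 in WT CMS. Values in KO were 58.01, 52.5 and 60.6 in SSt, 86.9, 97.1 and 91.2 in FBS and 82.6, 85.6 and 87.7 in CMS. The treated libraries were all above the starved ones, by 0.98 ± 0.04 (adjusted p = 1.74e-08) with FBS in WT and 0.74 ± 0.06 (adjusted p = 1.85e-05) in KO. Psme2, the beta subunit, was at 31.03, 30.9 and 31.2 FPKM in WT SSt, 55.7, 58.4 and 54.8 in WT FBS and 48.8, 47.9 and 48.3 in WT CMS. For KO the values were 29.5, 30.2 and 31.3 in SSt, 55.6, 55.5 and 51.9 in FBS and 48.6, 59.95 and 60.7 in CMS. It passed in all 4 comparisons with SSt and was called with CMS in KO (1.01 ± 0.09, adjusted p = 1.83e-05). Psme3, which forms a separate activator of the nucleus, was higher in the starved cells, at 43.9, 44.4 and 46.1 FPKM in WT SSt and 55.1, 54.6 and 56.9 in KO SSt against 33.7 to 38.1 in all 12 treated libraries. It passed lower in the 4 comparisons, between -0.57 and -0.31.

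Tapbp was at 17.5, 17.5 and 15.9 FPKM in WT SSt, 28.7, 26.4 and 26.3 in WT FBS and 28.1, 25.9 and 24.9 in WT CMS. For KO the values were 21.2, 21.7 and 23.3 in SSt, 29.5, 30.3 and 29.7 in FBS and 27.8, 36.7 and 33.6 in CMS. Its 4 log2 fold changes over SSt ran from 0.50 to 0.68, with no overlap of treated and starved libraries. Tap1 was at 4.27, 5.78 and 5.19 FPKM in WT SSt, 8.29, 8.77 and 7.90 in WT FBS and 8.25, 9.24 and 7.41 in WT CMS. KO cultures had 6.10, 5.33 and 6.17 in SSt, 9.09, 8.90 and 9.30 in FBS and 7.41, 9.07 and 9.66 in CMS. It gave nearly the same value in all 4 comparisons, from 0.67 to 0.69, each past the threshold. Tap2 shares its reads with the annotated copy LOC103689996, and in replicate 3 of KO SSt only 5.43% of the pair's counts were given to Tap2. The copy was at 5.20, 4.27 and 4.76 FPKM in WT SSt, 9.32, 10.1 and 9.13 in WT FBS and 8.84, 10.8 and 8.91 in WT CMS, and at 5.73, 4.55 and 6.97 in KO SSt, 10.1, 8.31 and 8.01 in KO FBS and 8.44, 11.6 and 10.51 in KO CMS. Tap2 alone passed with both treatments in WT and with neither in KO. The pair rose by 0.90 ± 0.07 (adjusted p = 1.76e-06) with FBS in WT, and by 0.98 ± 0.13 (adjusted p = 0.000202) with FBS and 1.07 ± 0.13 (adjusted p = 0.000101) with CMS in KO. Of the differences in response between the genotypes, 0 of 4 passed in these transport and loading genes, for FBS or for CMS. Of all genes 17.2% passed higher and 18.5% lower for FBS, and 23.2% and 21.6% for CMS. A count of 0 among 4 genes therefore cannot show that the genotypes respond alike. For CMS the difference was -0.07 ± 0.12 (SE) for Tapbp and -0.32 ± 0.15 (adjusted p = 0.0973) for the summed Tap2 pair.

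Ifi30, a thiol reductase that unfolds antigens in endosomes for class II loading, was among the most abundant of the genes. It was at 92.9, 102 and 97.9 FPKM in WT SSt, 258, 285 and 275 in WT FBS and 272, 283 and 295 in WT CMS. Its KO levels were 96.4, 97.3 and 97.02 in SSt, 137, 288 and 277 in FBS and 198, 193 and 179.7 in CMS. Its starved levels were close in the 2 genotypes, and it rose in all 4 comparisons with SSt, by 1.51 ± 0.05 (adjusted p = 2.99e-09) with CMS in WT and 1.08 ± 0.22 (adjusted p = 0.00239) in KO. Its response to CMS did not pass as different between genotypes (0.42 ± 0.24, adjusted p = 0.168). In KO CMS it was above KO SSt in every library, where the class II chains were below. CMS over FBS in KO was -0.24 ± 0.22 (adjusted p = 0.511), and -0.50 ± 0.04 (adjusted p = 0.000149) without replicate 1 of KO FBS.

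Genes around the pathway were looked at as well. Of 6 genes of the immunoproteasome and class I partners, 5 passed higher with FBS and 5 with CMS in WT, and 6 with each in KO. The shares of all genes that passed higher or lower over SSt were those given for the 65 genes, between 29.5% and 34.6% in each direction. They stand beside the counts over SSt of this paragraph and of the promoter factors. Psmb9, an immunoproteasome subunit, was at 5.14, 4.29 and 5.30 FPKM in WT SSt and 11.7, 13.9 and 12.4 in WT FBS, and its log2 fold changes were 1.33 ± 0.10 (adjusted p = 1.36e-06) in WT and 1.25 ± 0.14 (adjusted p = 7.51e-05) in KO. Nlrc5, the class I coactivator, was the one that did not pass in WT. It was at 1.20, 0.908 and 0.873 FPKM in WT SSt, 1.12, 1.02 and 1.03 in WT FBS and 0.874, 0.900 and 0.879 in WT CMS. In KO cells it stood at 0.490, 0.552 and 0.263 in SSt, 1.16, 1.17 and 1.15 in FBS and 0.682, 1.01 and 1.16 in CMS. The KO SSt libraries were the lowest, as for B2m, with -1.26 ± 0.23 (adjusted p = 0.000409) for KO over WT under SSt and -1.43 ± 0.32 (adjusted p = 0.00212) for the difference in response to CMS. Of 15 interferon signalling genes, 10 passed higher and 2 lower with FBS in WT and 12 and 0 in KO, and with CMS 9 and 2 in WT and 11 and 2 in KO. Ifngr1, the receptor chain that binds interferon gamma, rose by 1.76 ± 0.07 (adjusted p = 2.40e-07) with CMS in KO, and Irf8, a factor of myeloid cells, fell by 1.34 ± 0.14 (adjusted p = 5.08e-05). Ifng itself had a count of 0 in all libraries. Of the 16 genes of the pathway that the choice left out for their lysosomal or chaperone entries, 15 were tested in each genotype, and 4 passed higher and 10 lower with FBS and 4 and 8 with CMS in WT, against 3 and 8 with FBS and 6 and 7 with CMS in KO.

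The factors that bind class II promoters moved by less than 2-fold. Of the 8, 4 passed higher with FBS in WT and 4 in KO, and 4 passed higher with CMS in WT and 5 in KO. With FBS 0 passed lower in WT and 1 in KO, and with CMS 1 in each genotype. Nfyc was at 22.7, 21.3 and 20.9 FPKM in WT SSt, 21.7, 23.1 and 23.2 in WT FBS and 21.6, 20.8 and 20.04 in WT CMS, and at 21.3, 22.5 and 20.9 in KO SSt, 20.5, 21.5 and 21.5 in KO FBS and 18.6, 19.6 and 20.9 in KO CMS. It did not pass in any of the 4 comparisons with SSt. Creb1 was at 12.1, 12.1 and 12.6 FPKM in WT SSt, 14.4, 13.4 and 12.4 in WT FBS and 14.7, 14.1 and 16.3 in WT CMS, and at 10.8, 10.7 and 10.7 in KO SSt, 11.4, 12.5 and 13.3 in KO FBS and 13.3, 12.2 and 10.7 in KO CMS, where replicate 3 of KO CMS lay within the KO SSt range. Nfya, another Nfy subunit, was at 10.9, 10.47 and 10.2 FPKM in WT SSt, 12.02, 12.3 and 12.9 in WT FBS and 12.6, 12.9 and 12.5 in WT CMS, and at 11.8, 13.2 and 12.1 in KO SSt, 13.6, 13.4 and 12.5 in KO FBS and 12.97, 13.3 and 13.4 in KO CMS, between 10.2 and 13.6 FPKM in all 18 libraries. Rfx5, the DNA-binding subunit of the Rfx complex, had 0.07 ± 0.09 (adjusted p = 0.508) with CMS in KO, and its partner Rfxank rose by 0.45 ± 0.12 (adjusted p = 0.00851). Nfyb was the one that passed lower, at 7.70, 8.23 and 8.60 FPKM in KO SSt, 4.31, 4.81 and 4.66 in KO FBS and 3.88, 4.11 and 3.86 in KO CMS. In KO its log2 fold change was -0.77 ± 0.07 (adjusted p = 2.49e-05) with FBS and -0.94 ± 0.07 (adjusted p = 6.12e-06) with CMS. In WT it was -0.15 ± 0.08 (adjusted p = 0.116) with FBS and -0.20 ± 0.08 (adjusted p = 0.0365) with CMS. It was also higher in KO than in WT under SSt (0.59 ± 0.07, adjusted p = 3.76e-06). Its response differed by 0.61 ± 0.09 (adjusted p = 0.000137) for FBS and 0.73 ± 0.09 (adjusted p = 1.67e-05) for CMS. For each treatment it was the 1 response difference that passed among the 8. Of all genes 17.2% passed higher and 18.5% lower for FBS, and 23.2% and 21.6% for CMS.

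The cytokine Tnf moved in opposite directions in the 2 genotypes. Its reads are divided between Tnf and the annotated copy LOC103694380, with Tnf holding 1.76% to 100% of the pair, so the sum is described. The pair was at 36.7, 31.7 and 16.3 FPKM in WT SSt, 11.9, 11.1 and 9.42 in WT FBS and 8.09, 7.99 and 7.21 in WT CMS. Among KO libraries it was at 2.57, 2.79 and 4.86 in SSt, 38.1, 16.4 and 12.6 in FBS and 13.4, 31.3 and 35.03 in CMS. In WT the starved libraries were the highest and in KO the lowest, with no overlap in either genotype. The log2 fold change of CMS was -1.89 ± 0.25 (adjusted p = 7.47e-05) in WT and 3.07 ± 0.54 (adjusted p = 0.000984) in KO, a difference of -4.96 ± 0.63 (adjusted p = 1.78e-05). With FBS it was -1.42 ± 0.24 (adjusted p = 0.000485) in WT and 2.78 ± 0.53 (adjusted p = 0.00177) in KO, the latter 2.12 ± 0.41 (adjusted p = 0.00206) without replicate 1 of KO FBS. Of the single genes, Tnf with FBS in KO went from 2.48 ± 0.93 (adjusted p = 0.0457) to 1.42 ± 0.83 (adjusted p = 0.176) without that library. Under SSt the log2 fold change of KO over WT was -3.12 ± 0.46 (adjusted p = 5.93e-05) for the pair.

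Receptors of T cells were represented chiefly by Cd4, which rat macrophages also carry. It was at 60.3, 52.97 and 53.7 FPKM in WT SSt, 87.5, 80.2 and 90.1 in WT FBS and 73.7, 68.4 and 75.2 in WT CMS. KO libraries had 20.8, 20.2 and 18.1 in SSt, 56.6, 47.3 and 51.1 in FBS and 37.8, 32.7 and 32.8 in CMS. Within each genotype the groups did not overlap, FBS being highest and SSt lowest, and each KO group was below the WT group of the same condition. Cd4 rose by 0.59 ± 0.06 (adjusted p = 1.64e-05) with FBS in WT and 1.45 ± 0.10 (adjusted p = 4.27e-06) in KO, and KO over WT under SSt was -1.57 ± 0.09 (adjusted p = 4.72e-09). Cd8b was at 0.616, 0.521 and 0.574 FPKM in WT SSt, 1.85, 2.04 and 1.34 in WT FBS and 2.00, 1.78 and 2.01 in WT CMS, and at 0.604, 0.660 and 0.472 in KO SSt, 0.879, 1.64 and 1.22 in KO FBS and 1.25, 1.06 and 0.715 in KO CMS. It rose by 1.72 ± 0.20 (adjusted p = 3.11e-05) with CMS in WT. Cd8a was at 0.724, 0.862 and 0.989 FPKM in WT SSt, 0.839, 1.83 and 1.07 in WT FBS and 1.56, 1.49 and 1.77 in WT CMS, and at 1.10, 1.70 and 1.17 in KO SSt, 0.910, 1.61 and 0.925 in KO FBS and 1.41, 0.450 and 0.412 in KO CMS, with a difference in response to CMS of 1.56 ± 0.59 (adjusted p = 0.0418). The NK cell receptors Klrc1, Klrc2, Klrd1 and Kir3dl1 had a count of 0 in every library.

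Hspa4, a partner of Hsp70 chaperones, fell in all 4 comparisons. It was at 79.8, 81.2 and 82.4 FPKM in WT SSt and 90.7, 92.3 and 93.2 in KO SSt, and between 53.8 and 58.7 in the 12 treated libraries. The log2 fold changes ran from -0.70 to -0.51. The 16 genes that were not tested included 8 with a count of 0 in all libraries, and 15 of the 16 never reached 1 FPKM. Among them were the class II chains RT1-DOa and RT1-DOb, which hold back the DM pair in B cells, at no more than 0.0371 and 0.165 FPKM in any library.

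**Figure D5:**
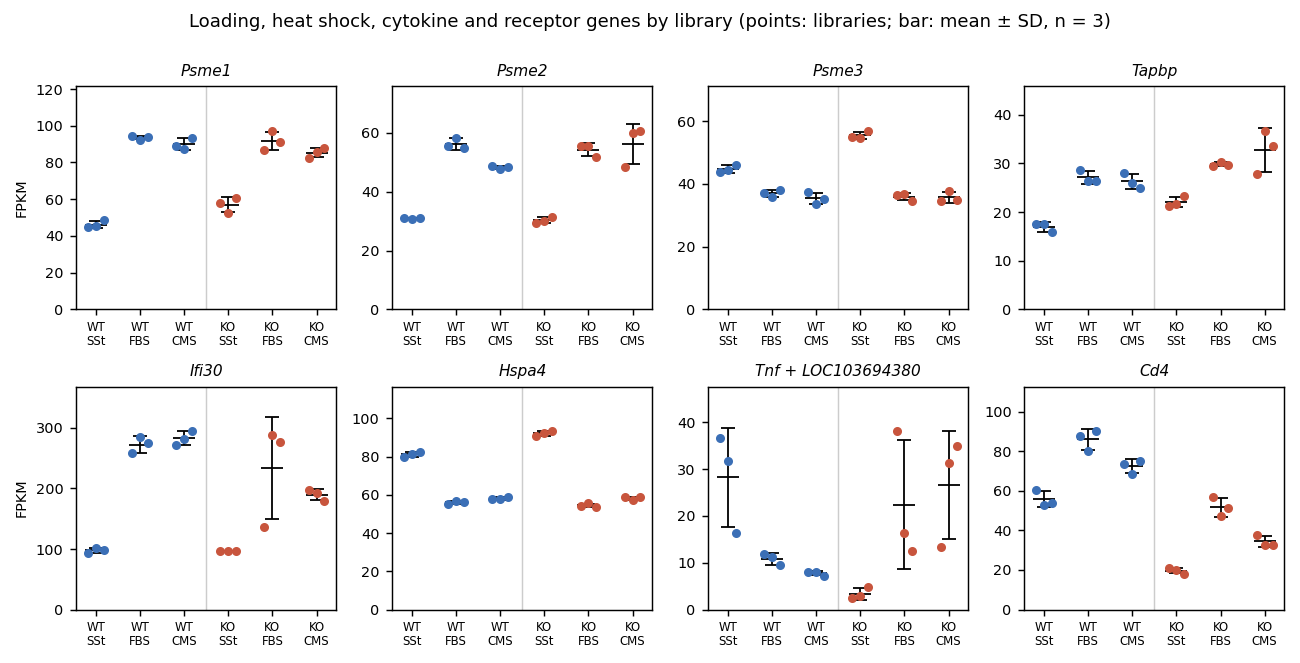
FPKM (linear axis from 0) of proteasome activators, Tapbp, Ifi30, Hspa4, the summed Tnf pair and Cd4 in each library of the 6 groups, with points for libraries and bars for mean ± SD (n = 3). Psme3 and Hspa4 are highest in SSt, and the Tnf pair is highest in SSt in WT and lowest in SSt in KO.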

How the data were processed

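The authors deposited 1 table per genotype with, for each of 32623 genes and 9 libraries, the count of reads and the FPKM, and both were used. The counts are whole numbers without normalisation. The FPKM were used as deposited, with 1e-04 written for a count of 0, which was read as 0. Bowtie 0.12.2 and the mouse build mm10 stand in the submitters' notes although the gene identifiers are of rat, so no coordinates of the tables are printed. All columns could be mapped to a sample.

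Counts were tested with edgeR 4.0.16 (quasi-likelihood F test, TMM scaling) within each genotype, and over all 18 libraries for differences of response and for KO over WT. Genes entered a fit when 3 or more of its libraries had 1 FPKM or more (12916, 12888 and 13317 genes). P-values were adjusted over all genes tested (Benjamini-Hochberg). The procedure was tested on simulated data. Alternatives were DESeq2 1.42.0, RLE scaling, no filter, the replicate number as a block within genotype, leaving out each library, and, chosen after seeing the data, summing annotated copies, with and without replicate 1 of KO FBS. FPKM serves levels and figures only.

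The 65 genes and all lists were chosen with earlier results of these data known. Named with values in every library were, per role, the 3 tested genes of highest mean FPKM and the 3 called genes of largest change with a mean FPKM of at least 1 in the higher group. Of these, Tnf and LOC103694380 were given by library as their sum only, and Psme3 and Hspa4 by a range in the treated libraries. Other genes, and a few of the neighbouring lists, were named freely.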

Additional observations from a re-analysis of the deposited data

Results flagged for a closer look

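A closer look is given to the genes whose response differed between the genotypes, each by the test of the difference itself (edgeR quasi-likelihood test over 18 libraries, adjusted p under 0.05 and a difference of at least 2-fold, WT minus KO on the log2 scale). For CMS over SSt, the class II genes had differences of 4.94 (Ciita), 4.24 (RT1-Da), 4.06 (RT1-Ba), 3.72 (RT1-Db1), 3.14 (RT1-DMb), 3.07 (LOC108348139), 3.03 (Cd74), 2.91 (RT1-Bb) and 1.43 (LOC108348072). Among class I genes they were 1.87 (RT1-T24-1), 1.31 (RT1-N3), 1.31 (RT1-T24-3), 1.27 (RT1-N2) and -1.32 (RT1-CE7). For the other genes they were 1.56 (Cd8a), -4.33 (Tnf) and -5.78 (LOC103694380). For FBS over SSt, the differences were 1.48 (RT1-Da), 1.40 (RT1-Db1), 1.38 (Cd74), 1.09 (RT1-T24-1), 1.08 (RT1-N2), -4.12 (LOC103694380) and -4.52 (Tnf). Without replicate 1 of KO FBS, RT1-T24-1 stood at 0.92 (adjusted p = 0.0849), LOC103694380 at -3.81 (adjusted p = 0.0683) and RT1-N2 at 0.98 (adjusted p = 0.00518, under 2-fold), while Cd74, RT1-Da, RT1-Db1 and Tnf were still called. The genotype and the table it was deposited in cannot be told apart for any of them. No test for a single outlying library was applied to groups of 3.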

How the results depend on the processing

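Of 133 counts of called genes under other settings, 130 were within 1.5 times the reported count. The labels give the same replicate numbers in every group, but deviations from the group means of same-numbered libraries correlated at -0.137 to 0.146 within a genotype and at -0.126 to 0.149 between genotypes, so the numbers were not taken to pair the libraries. With the replicate number as a block within genotype, no count of called genes moved by over 1.5 times, and KO over WT under SSt called 9 of the 49 genes in place of 10. Leaving out 1 library gave 6 to 9 called genes for CMS over FBS in KO (10 with all, 6 without replicate 3 of KO CMS or replicate 2 of KO FBS) and 4 to 10 for the difference of response to FBS (7 with all, 4 without replicate 1 of KO FBS). Of 3024 values of genes past the adjusted p under other settings, 2720 stayed past it, 304 did not and 0 turned sign. The 304 include 23 under the replicate block, 24 without the filter on low values, 3 with DESeq2 and 2 with RLE scaling. The depth of 56.08 M counts or more still left Ciita in KO CMS and Cd8a and Cd8b in all groups at low FPKM.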

Other observations

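RT1-CE1, a class I heavy chain, was the 1 gene of the set called higher with CMS over FBS in KO, at a log2 fold change of 1.79 ± 0.49 (edgeR, adjusted p = 0.0413). Without replicate 1 of KO FBS it did not pass (1.79, adjusted p = 0.0545). Its libraries scattered widely, with 0.427, 0.529 and 0.356 FPKM in KO FBS and 2.11, 1.43 and 0.884 in KO CMS, and its annotated span overlaps many other genes. The untested class I gene LOC100364500 reached 3.04 FPKM in replicate 2 of WT CMS against 0.355 and 0.454 in the other replicates of that group.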
